A study of Homo sapiens with 24 samples.

Results

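The genes described here were those with more newly made RNA after 3 h of dTAG13 in every cell line and batch of a TT-seq series on Integrator, 251 of the 6569 genes tested. TT-seq labels RNA for a short time with a uridine analogue, so its values follow synthesis more than the amount of RNA in the cell. A gene was a member if its mean log2(value + 0.1) was higher with dTAG13 than in control cells by at least a 1.5-fold ratio in each of 5 contrasts, and if its mean value was at least 0.1 in each batch. The value is the deposited signal per kilobase of gene. The rule left out ZNF and SLC symbols and 7 single genes, and 18 genes that passed the 5 thresholds were set aside in this way (10 SLC, 1 ZNF and the 7 single genes). The members were chosen on these differences, so the differences at 3 h are given as a description, with no test.

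The cells were DLD1, an established colorectal adenocarcinoma line, in 3 engineered forms. In the INTS11 line the gene INTS11 carried a dTAG degron tag, and in the INTS8 line the gene INTS8 carried it. The N211del line was the INTS8-dTAG line with an ectopic INTS8 variant that the labels call N211del. dTAG13 is a small molecule that directs a tagged protein to degradation. In batch 1 all 3 lines were given dTAG13 or its vehicle, DMSO, for 3 h. In batch 2 dTAG13 was followed for 0, 1 and 3 h in 2 lines, INTS11 and N211del, with no vehicle group. There were 2 libraries per group and 24 libraries, which the labels call biological duplicates. The labels do not say whether a line was 1 clone, and no untagged line was given dTAG13. RNA of INTS11 and INTS8 was not analysed here, and since the tag acts on protein, RNA would not show its loss.

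Integrator is a large complex that acts on RNA polymerase II shortly after the start of transcription. Its endonuclease, with INTS11 as the catalytic subunit, cuts the nascent RNA, and its other enzyme is PP2A, a phosphatase held with the help of INTS8, which removes phosphates that help polymerase go on into the gene. The complex is known for ending transcription early at many protein-coding genes, among them genes that respond quickly to signals. The series was designed to set apart what these 2 enzymes do.

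All 10 colon epithelial markers that every file listed were well above 0 in each library but for the low end of TFF3 and MUC13, whose lowest values were 1.60 and 1.43. KRT18, an epithelial keratin, ranged from 935 to 1723, EPCAM, an epithelial adhesion protein, from 111 to 156, and CDX2, an intestinal transcription factor, from 64.1 to 146. The colon list had 19 markers, of which 10 were in every file and 14 in every file of batch 2. Of 18 markers of other cell types, none was in every file and 2 were in every file of batch 2. A marker missing from the files is not shown to be absent from the cells. Depth, as the sum over listed genes, was 5514811 to 8114955 whole-number units per library for batch 1 and 8706834 to 11262982 for batch 2, where a unit is the whole number that the value becomes when multiplied by gene length and freed of the library's factor. For the median member this was 28 to 149 units (batch 1) and 40 to 149 units (batch 2).

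Promoter sequence is shown for 5 members that are named below. Of the 251 members 205 had a promoter in RefSeq (GRCh38.p14), as had 5405 of the 6569 genes tested, and the 250 bases before the annotated start are used. Capitals mark any of 4 motifs. The GC box (GGGCGG), the CCAAT box and the AP-1 site (TGANTCA) were searched on either strand, and the TATA box (TATAAA) on the forward strand alone. DIO3 and SEMA3G are among the members with the widest gap between lines, KCNG3 was lowest in the INTS11 line after dTAG13 in both batches, IL11 had the AP-1 letters, and PLAC8 had the lowest share of G and C of the 5. The windows lie at chr14:101561245-101561494 (plus strand) for DIO3, chr3:52445104-52445353 (minus) for SEMA3G, chr2:42493983-42494232 (minus) for KCNG3, chr19:55370464-55370713 (minus) for IL11 and chr4:83114730-83114979 (minus) for PLAC8.
DIO3: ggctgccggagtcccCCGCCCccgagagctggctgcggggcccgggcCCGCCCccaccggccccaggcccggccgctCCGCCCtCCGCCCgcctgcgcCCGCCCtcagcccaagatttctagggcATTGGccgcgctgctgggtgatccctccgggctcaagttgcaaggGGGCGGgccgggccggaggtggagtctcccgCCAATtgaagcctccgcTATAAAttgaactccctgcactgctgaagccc
SEMA3G: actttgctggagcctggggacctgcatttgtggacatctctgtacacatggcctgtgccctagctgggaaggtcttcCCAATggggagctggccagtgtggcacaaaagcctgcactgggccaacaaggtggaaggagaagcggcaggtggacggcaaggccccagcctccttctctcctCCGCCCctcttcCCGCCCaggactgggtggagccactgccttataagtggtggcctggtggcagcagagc
KCNG3: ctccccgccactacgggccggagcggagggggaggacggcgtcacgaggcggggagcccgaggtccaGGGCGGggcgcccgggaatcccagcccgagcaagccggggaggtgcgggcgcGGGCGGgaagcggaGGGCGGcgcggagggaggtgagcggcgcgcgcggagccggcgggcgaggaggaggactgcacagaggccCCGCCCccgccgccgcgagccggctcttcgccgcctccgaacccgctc
IL11: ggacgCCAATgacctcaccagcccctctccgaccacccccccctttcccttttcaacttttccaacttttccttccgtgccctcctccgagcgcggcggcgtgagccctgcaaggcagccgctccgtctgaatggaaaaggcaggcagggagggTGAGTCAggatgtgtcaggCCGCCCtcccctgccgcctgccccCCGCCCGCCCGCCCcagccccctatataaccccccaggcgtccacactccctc
PLAC8: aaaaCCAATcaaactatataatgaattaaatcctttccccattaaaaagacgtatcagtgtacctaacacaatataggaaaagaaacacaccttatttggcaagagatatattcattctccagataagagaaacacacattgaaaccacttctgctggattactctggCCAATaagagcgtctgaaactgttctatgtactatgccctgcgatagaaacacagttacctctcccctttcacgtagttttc

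The 5 windows have little in common by these letters, but IL11 and PLAC8 were shown for features of their sequence. DIO3 has 6 GC boxes, 2 CCAAT boxes and 1 TATA box, KCNG3 has 4 GC boxes alone, and SEMA3G has 2 GC boxes and 1 CCAAT box. IL11 has 1 AP-1 site, 4 GC boxes and 1 CCAAT box. PLAC8 has 2 CCAAT boxes and no GC box, and G and C make up 36.8% of its window against 80.8% for KCNG3. Over the 205 members, the GC box letters were in 67.3% of windows (69.6% of the 5405), CCAAT in 33.2% (35.2%), TATAAA in 5.85% (3.09%) and TGANTCA in 6.34% (4.14%). The ETS core CCGGAA, on either strand, was in 9.76% of the members' windows and in 23.4% of all, and the CRE core TGACG in 18.5% and 28.6%. CACGTG, the E-box, was in 9.27% and 9.18%. NCGTG, a loose form of the hypoxia response core with any first base, was in 67.3% and 76.2%. Every E-box of the form searched also holds these letters. Median G and C content was 65.2% in both sets, and the median ratio of observed to expected CpG was 0.742 in members and 0.822 in all. A match of letters is a description and not a site of binding.

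Members were weakly transcribed genes in control cells. Their median value over all libraries was 3.58, against 16.5 for all genes tested, and 188 of the 251 lay in the lowest of 4 equal bins of tested genes by level. Members made up 11.4% of that bin and 3.82% of all tested genes. In the control libraries the median value was under 1 in 105 members (41.8%, against 5.75% of all tested), from 1 to 5 in 95, from 5 to 20 in 41 and 20 or more in 10. Counts were small in part of them, whose share in the result was not tested: 40 members averaged under 10 units over the control libraries, and 3 (SPINK2, CFAP206 and MASP2) were listed at 0 in at least 1 of these libraries. The highest members by mean value were NABP1, ADM and PNRC1, and the lowest were RBM20, CFAP206 and SYNPO2, each with a mean of 0.22 or less in either batch.

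**Figure D1:**
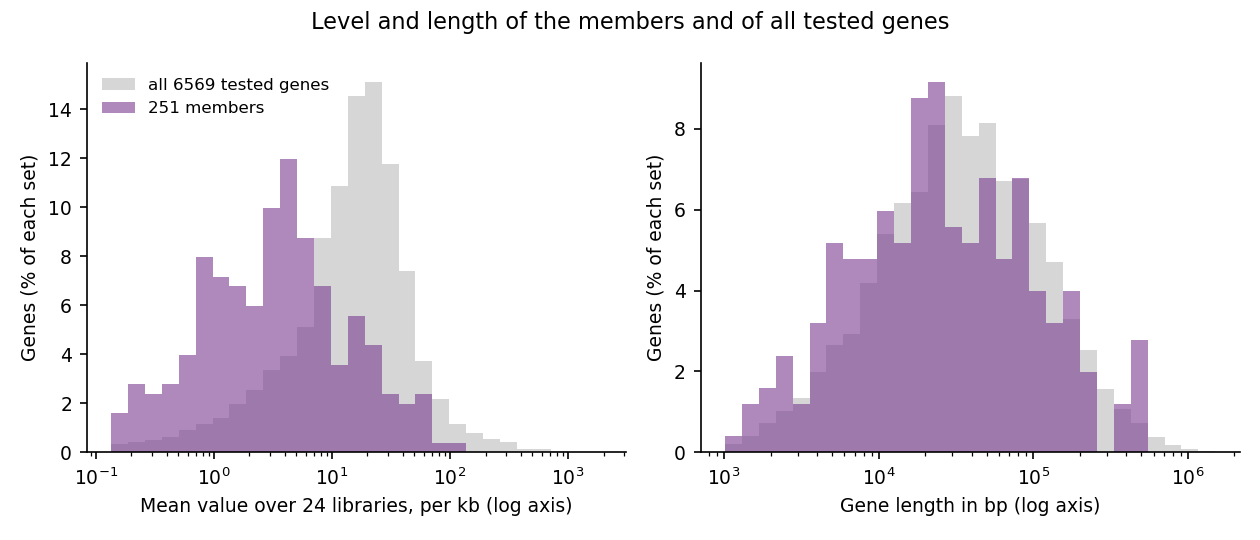
Mean value over the 24 libraries (left, log axis) and gene length (right, log axis) for the 251 members and all 6569 tested genes, each as a percentage of its set. The members' median value is 3.58 against 16.5, and their median length is 24513 against 34005 bp.

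Members were also shorter, with a median length of 24513 bp against 34005 bp, from ARL14 at 1269 bp to KSR2 at 515979 bp. Of 4 equal bins of tested genes by length the shortest held 87 members, and the longest held 56. The gap was there at both levels: in the lowest level bin the median length was 32625 bp in members and 49402 bp in all, and in the other bins 8506 and 30725 bp. Of the 250 members placed in RefSeq, 3 pairs were next to each other among protein-coding genes (PTPRB with PTPRR, LTBP1 with RASGRP3, and GCNT4 with ANKRD31).

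At 3 h in batch 1 the median member was higher with dTAG13 by 0.98 on the log2 scale in the INTS11 line, by 1.62 in the INTS8 line and by 1.37 in the N211del line. All tested genes had medians of -0.03, 0.06 and 0.21. In batch 2 the members' medians were 1.07 for INTS11 cells and 1.33 for N211del cells, against 0.06 and 0.17 over all tested genes. Dividing each library by its own median took that shift out and left 203 genes that passed the rule, 196 of them members. Since the cells were measured in bulk, more RNA per cell and more cells that make it cannot be told apart. The smallest of a member's 5 differences had a median of 0.82, and 66 members were at least 2-fold higher in every contrast.

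**Figure D2:**
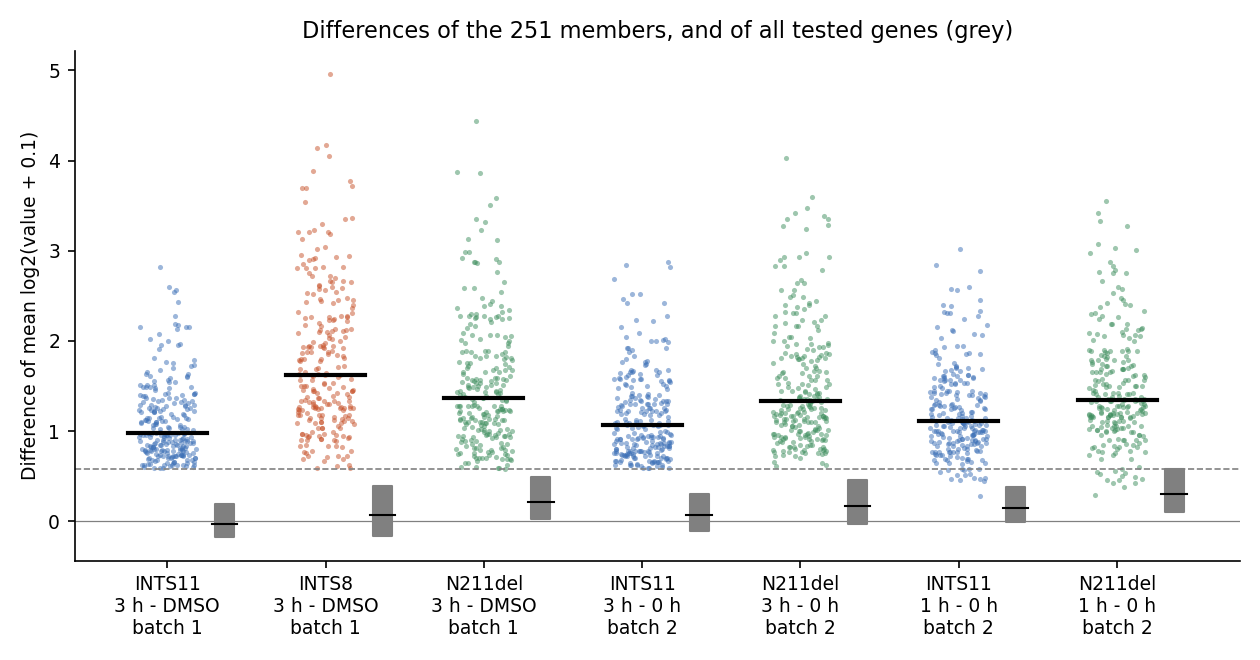
Difference of mean log2(value + 0.1) for each of the 251 members (points; black line, median) in the 5 contrasts of the rule and in the 2 contrasts at 1 h, with the interquartile range and median of all 6569 tested genes in grey. The dashed line is the 1.5-fold threshold, and the members' medians run from 0.98 to 1.62.

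Replicates were close beside these differences. Both treated libraries were above both control libraries in 250 members in the INTS11 line of batch 1 (33.2% of all tested genes), 250 in the INTS8 line (46.4%), 250 in the N211del line (61.3%), and in batch 2 in all 251 for INTS11 (48.0%) and all 251 for N211del (61.2%). Since the rule used these libraries, the counts describe the members and add no support. The limma test called 237 members higher in the INTS11 line of batch 1 (19.4% of all genes tested), 245 in the INTS8 line (34.6%), 237 in the N211del line (48.5%), 246 in the INTS11 line of batch 2 (36%) and 249 in the N211del line of batch 2 (49.7%), and these counts too follow from the rule.

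At the threshold, the members just inside were EVX1, a homeobox factor, LIPT1, an enzyme of lipoate transfer, and UPP1, a uridine phosphorylase, with smallest differences of 0.5853, 0.5856 and 0.5862. The genes just outside were DUSP2, a phosphatase of MAP kinases, at 0.5845, ERVMER34-1, a gene of retroviral origin, at 0.5844, and ATF3, a stress-responsive transcription factor, at 0.5824. ATF3 was 2.27 higher in the INTS8 line and 1.40 higher in the N211del line of batch 1, so its place outside rests on the INTS11 line of batch 1.

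DIO3, which encodes the deiodinase that inactivates thyroid hormone, had a smallest difference of 2.03. With DMSO in batch 1 it stood at 2.55 and 2.55 in the INTS11 line, 3.06 and 2.55 in the INTS8 line, and 4.09 and 4.60 in the N211del line. After 3 h of dTAG13 the same lines held 11.2 and 10.2, 77.6 and 105, and 96.0 and 96.5. In batch 2 the INTS11 line went from 5.79 and 3.07 at 0 h to 30.1 and 31.9 at 1 h and 30.3 and 33.0 at 3 h, and the N211del line from 1.80 and 6.10 to 35.4 and 31.1 and then 52.7 and 59.0. No treated library overlapped a control library of its line, and in batch 1 the INTS8 and N211del lines lay far above the INTS11 line with dTAG13. With DMSO the INTS8 line was close to the INTS11 line, and the N211del line was 0.74 above it on the log2 scale. DIO3 is short, and its control values rest on 5 to 19 units.

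FOXL1, a forkhead factor, was the member with the second largest smallest difference, 1.97. It was at 1.3 and 1.3 with DMSO and 6.30 and 10.1 with dTAG13 in the INTS11 line of batch 1, 1.05 and 1.89 against 10.7 and 9.03 in the INTS8 line, and 1.05 and 1.47 against 4.83 and 6.09 in the N211del line. In batch 2 the INTS11 line held 6.39 and 5.33 at 0 h, 32.5 and 30.02 at 1 h and 31.0 and 32.7 at 3 h, and the N211del line 1.33 and 1.11, 5.37 and 5.99, and 5.94 and 4.31. Here the groups were apart by similar ratios in every line, while the level in the INTS11 line of batch 2 stood above that of the N211del line at each time. The control values of FOXL1 rest on 5 to 51 units.

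**Figure D3:**
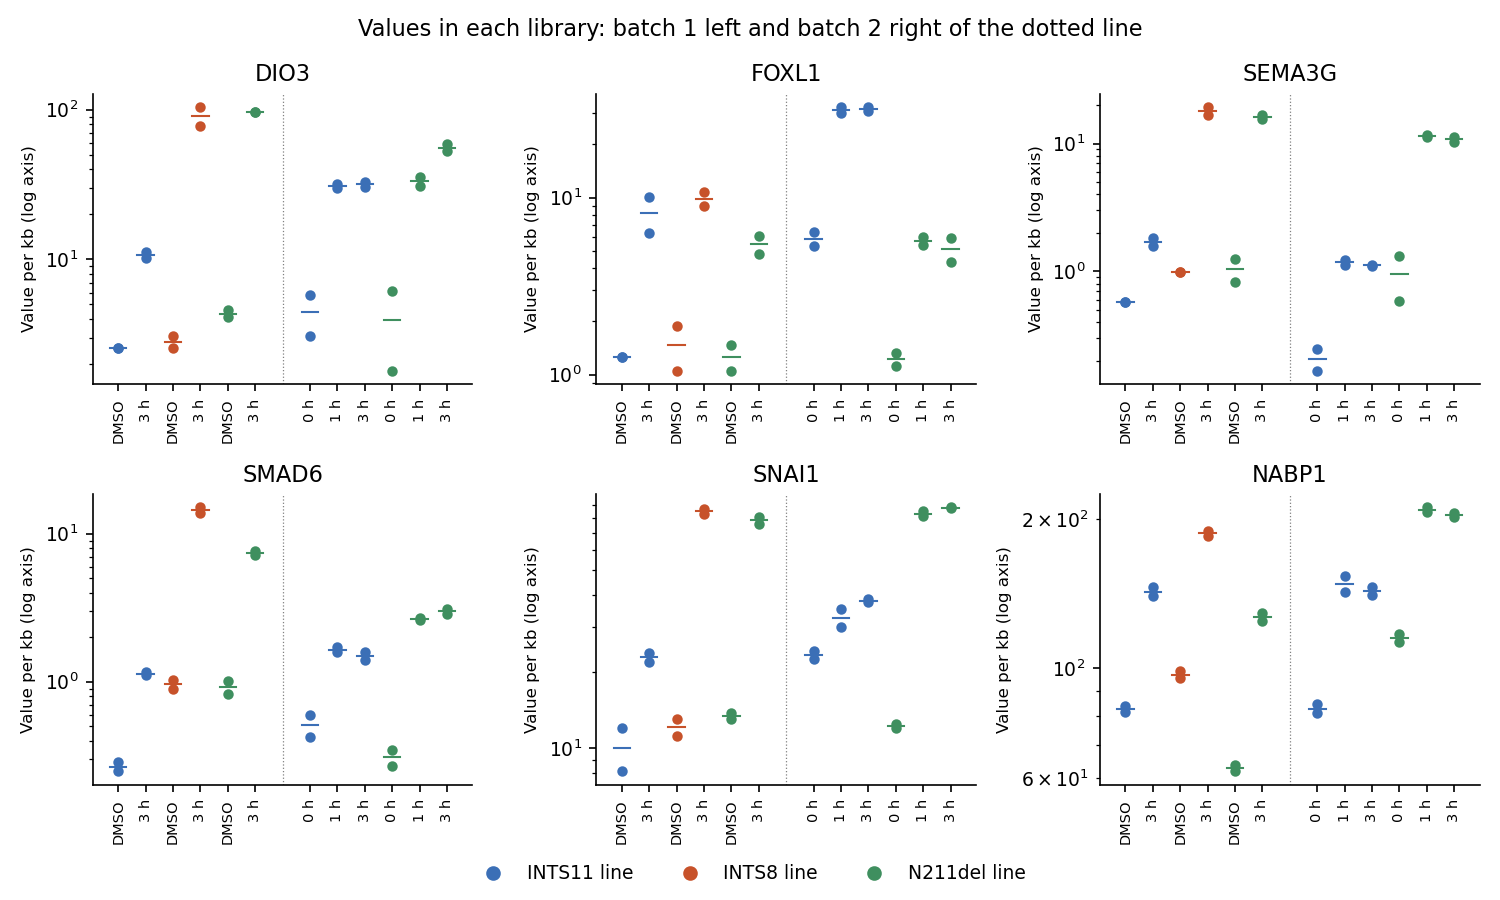
Value per kilobase (log axis) of 6 members in each of the 24 libraries; points are libraries, short lines the mean of 2, colours the cell line, with batch 1 left and batch 2 right of the dotted line. DIO3, SEMA3G, SMAD6 and SNAI1 reach higher levels in the INTS8 and N211del lines than in the INTS11 line of batch 1, and NABP1 is at 61.8 or more in every library.

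The other members with the largest smallest differences, among those with a mean value of at least 1 in each batch, came from unlike families. PRDM7 (1.96), which belongs to a family of histone methyltransferases and has the near-identical copy PRDM9, so that its reads are uncertain, was followed by ZSCAN4 (1.70), known from early embryos, KCNG3 (1.63), a potassium channel subunit, RPP25 (1.59), a protein of RNase P, MAOA (1.58), an enzyme that breaks down amine transmitters, and CLDN9 (1.57), a tight junction protein. Then came IL11 (1.49), a cytokine, PLAC8 (1.48), EOMES (1.46), a T-box factor, DUSP19 (1.44), a phosphatase, SH2D6 (1.44), RASGRF1 (1.43), an exchange factor for Ras, and SEMA3G (1.40), a secreted semaphorin. The mean of at least 1 includes treated libraries, and control libraries held few units in part of these genes. They held 1 to 7 for RPP25, 1 to 14 for CLDN9, 2 to 12 for PRDM7 and 4 to 17 for IL11. ZSCAN4 had 31 to 60, MAOA 27 to 63 and RASGRF1 34 to 198. In KCNG3 the order of the lines was the same in both batches: the INTS11 line went from 0.346 and 0.212 to 1.14 and 0.981 in batch 1 and the N211del line from 0.173 and 0.154 to 3.37 and 4.20. The INTS8 line went from 0.404 and 0.404 to 6.91 and 6.0. In batch 2 KCNG3 was at 1.44 and 1.35 at 3 h in the INTS11 line and at 2.61 and 2.35 in the N211del line.

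Most gene lists drawn up for this tissue and treatment held few members, and the lists were drawn up with earlier results known. The largest share was in genes of the Notch pathway and its HES and HEY targets, in which 4 of 15 tested genes were members, against 4.05% of the genes that the rule did not leave out by name. These were DLL4, a Notch ligand, and HES2, HES6 and HEY2, factors of the HES and HEY family. Control libraries held 33 to 86 units for DLL4, but 1 to 31 for HES2, 4 to 19 for HES6 and 1 to 7 for HEY2. The list was not matched for level, and members made up 11.4% of the lowest bin of tested genes by level. DLL4 was at 3.6 and 4.31 with DMSO and 9.66 and 10.4 with dTAG13 in the INTS11 line of batch 1, at 4.11 and 3.39 against 50.2 and 50.2 in the INTS8 line, and at 4.31 and 5.55 against 41.3 and 46.2 in the N211del line. In batch 2 DLL4 reached 14.7 and 14.5 at 1 h from 5.28 and 4.74 in the INTS11 line, and 29.5 and 27.9 from 2.68 and 2.52 in the N211del line. Its treated libraries were thus above all controls of the line, and highest in the INTS8 and N211del lines. Over all 15 genes of the list, 10 rose and 1 fell from 0 to 1 h in the INTS11 line and 12 rose and 1 fell in the N211del line in the limma test, against 46.0% and 66.0% of all genes that rose, with medians of 0.49 and 1.15 against 0.14 and 0.30 over all tested genes.

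Secreted signals gave 8 members of 35 tested: the growth factors FGF9 and HBEGF, the cytokine IL11, the peptide hormone gene ADM, the semaphorins SEMA3G and SEMA7A, and the Wnt ligands WNT7B and WNT11. SEMA3G went from 0.580 and 0.580 to 1.57 and 1.82 in the INTS11 line of batch 1, from 0.994 and 0.994 to 19.5 and 16.7 in the INTS8 line, and from 0.829 and 1.24 to 15.6 and 16.7 in the N211del line. In batch 2 it was at 0.247 and 0.166, 1.22 and 1.13, and 1.12 and 1.10 at 0, 1 and 3 h in the INTS11 line and at 0.584 and 1.32, 11.3 and 11.7, and 11.3 and 10.4 in the N211del line. FGF9 showed the same order, with 1.38 and 1.62 in the INTS11 line, 8.71 and 8.53 in the INTS8 line and 7.45 and 6.79 in the N211del line after 3 h in batch 1. The control values of FGF9 in those lines were 0.359 and 0.598, 0.898 and 1.17, and 0.808 and 0.449. Of the 35 genes 27 rose and none fell from 0 to 1 h in the INTS11 line (46.0% of all genes rose), and 32 rose and 1 fell in the N211del line (66.0% rose).

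Of the Wnt genes 4 of 17 were members: the ligand WNT11, the receptor FZD7, the ephrin receptor EPHB3, a known Wnt target in the gut, and the factor TCF7L1. Receptors and adhesion proteins gave 12 of 63: ADORA1, ADRA2C, GPR19, GPRC5C, PTGER2 and PTGER4 (G protein-coupled receptors), EPHA4 and EPHB3 (ephrin receptors), FZD1 and FZD7 (Wnt receptors), PCDH7 and CLDN9. Their differences ran from 0.62 to 2.0 in the INTS11 line of batch 1 and from 0.73 to 3.18 in the INTS8 line. PTGER2 was unlike most in that the INTS8 line did not lead, with differences of 1.22, 0.96 and 1.22 in the INTS11, INTS8 and N211del lines of batch 1.

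TGF-beta and BMP genes gave 3 members of 16: the ligand TGFB3, the inhibitory SMAD6, which BMP signals are known to induce, and SNAI1, a repressor of epithelial genes. SMAD6 was at 0.285 and 0.248 with DMSO and 1.10 and 1.17 with dTAG13 in the INTS11 line of batch 1, at 0.893 and 1.03 against 13.8 and 15.1 in the INTS8 line, and at 1.02 and 0.831 against 7.17 and 7.60 in the N211del line. In batch 2 SMAD6 held 0.60 and 0.423 at 0 h, 1.70 and 1.59 at 1 h, and 1.39 and 1.59 at 3 h in the INTS11 line, and 0.271 and 0.346, 2.71 and 2.61, and 3.10 and 2.88 in the N211del line. SNAI1 stood much higher, and its groups were apart in every line: 8.13 and 12 against 23.7 and 21.8 in the INTS11 line, 11.2 and 13.0 against 83.2 and 86.7 in the INTS8 line and 13.7 and 13.0 against 76.1 and 80.8 in the N211del line. In batch 2 SNAI1 went from 22.4 and 24.1 to 38.4 and 37.4 at 3 h in the INTS11 line, a difference of 0.70, and from 12.4 and 12 to 88.1 and 87.1 in the N211del line, a difference of 2.83.

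Immediate early genes of the EGR, NR4A and IER families gave 2 members of 11. NR4A3, an orphan nuclear receptor, was at 4.91 and 5.22 with DMSO in the INTS11 line and 13.2 and 14.4 with dTAG13, while the INTS8 line went from 6.68 and 7.86 to 72.2 and 65.4 and the N211del line from 4.42 and 4.22 to 32.6 and 34.0. EGR3, a zinc finger factor, is the reverse case in batch 2: the INTS11 line went from 3.49 and 3.44 at 0 h to 13.8 and 14.5 at 3 h, and the N211del line only from 3.39 and 3.53 to 5.10 and 6.57. The AP-1 and MAF factors (7 tested), the DUSP and Sprouty feedback genes (15) and the SOCS and CISH genes (4) gave no member, as did p53 targets (11), YAP targets (13), cholesterol genes (10) and genes of oxidative stress and metals (12). The DUSP list did not hold DUSP19, which was a member. SOCS1, FOSB and NR4A2 passed the 5 thresholds and were left out by name.

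Hypoxia genes gave 3 members of 18: ADM, which encodes the vessel-relaxing peptide adrenomedullin, EGLN3, an oxygen-sensing hydroxylase, and BHLHE41, which also counts among the 2 circadian members of 12, with HLF. ADM was at 35.3 and 38.7 against 66.7 and 61.9 in the INTS11 line of batch 1, 24.9 and 28.8 against 125 and 121 in the INTS8 line and 40.0 and 29.2 against 120 and 112 in the N211del line. NF-kB targets gave 2 of 20 (IL11 and TRAF1), interferon-stimulated genes 1 of 15 (IFI6, with differences from 0.62 to 1.98), and ATF4 and stress genes 1 of 16 (GADD45G). MX1 passed the thresholds and was left out by name. MX2 and CMPK2, 2 further genes known to answer to interferon, were members outside the lists and were picked here after their values were seen: MX2 differed by 0.97 to 1.92 and CMPK2 by 1.05 to 1.66.

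Developmental transcription factors gave 9 members of 63: DLX3, DLX6, FOXA3, FOXL1, GATA2, HOXD9, LHX9, MSX1 and POU3F3. The list was not complete for its class, since the homeobox members EVX1 and PBX3 were outside it. Of the 63 genes 41 rose and 5 fell from 0 to 1 h in the INTS11 line, where 46.0% of all genes rose, and 47 rose and 5 fell in the N211del line, where 66.0% did. KLF and SP factors gave 2 of 15 (KLF15 and SP6), and other zinc finger factors 4 of 72 (IKZF2, PRDM7, PRDM11 and ZSCAN4). Larger classes of signalling genes were close to the share of all genes: 3 of 61 kinases (SGK1, NUAK1 and PRKCA) and 5 of 129 ubiquitin ligases and adaptors (FBXO32, KCTD15, PELI2, TRIM45 and TRIM54). SGK1, a kinase that steroid hormones are known to induce, had wide gaps between lines. It reached 33.5 and 32.1 in the INTS11 line of batch 1, 149 and 137 in the INTS8 line and 122 and 116 in the N211del line, from 17.8 and 19.1, 24.3 and 25.2, and 24.4 and 24.6. Altogether, 65 of the 251 members were in at least 1 list.

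Lists of the transcription machinery were small, and members are 4.05% of genes in general. NABP1, which encodes a single-strand DNA-binding partner of Integrator subunits, was the sole member among 6 Integrator genes tested and the member with the highest mean. It was at 83.9 and 81.5 against 146 and 140 in the INTS11 line of batch 1, 95.4 and 98.5 against 190 and 185 in the INTS8 line and 63.8 and 61.8 against 129 and 124 in the N211del line, which is nearly the same ratio in each. In batch 2 it held 84.4 and 81.1, 154 and 143, and 141 and 146 in the INTS11 line and 113 and 117, 207 and 212, and 206 and 202 in the N211del line. INTS2, another subunit, missed the rule in batch 2 of the INTS11 line at 0.54, with 0.60 to 0.79 in the other contrasts. Of the 6 Integrator genes 3 rose and 1 fell from 0 to 1 h in the INTS11 line and 5 rose in the N211del line, beside 46.0% and 66.0% of all genes that rose. None of 5 PP2A genes, 13 genes of pausing and elongation and 11 of termination was a member, but HEXIM1, a regulator of pausing that passed the 5 thresholds, was among the genes left out by name. ZC3H4, a factor of early termination, missed it at 0.54 in the N211del line of batch 2, after differences of 0.81, 0.86, 0.63 and 1.23 in the others.

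By 1 h of dTAG13 the members were already near their 3 h level in both lines measured. From 0 to 1 h the limma test called 242 of the 251 members higher in the INTS11 line (46% of all genes tested) and 240 in the N211del line (66%), and none lower in either (9.86% and 4.92% of all). At an unadjusted p under 0.05 none was lower either. The 0 h libraries are shared with the rule, so these counts are not independent of it. The difference at 1 h was at least 1.5-fold in 235 members (13.4% of all tested) for the INTS11 line and 237 (24.8%) for the N211del line, with medians of 1.11 and 1.35 over the members and of 0.14 and 0.30 over all tested genes. Every 1 h library was above every 0 h library in all 251 members for INTS11 (59.8% of all tested) and in 250 for N211del (78.1%), where TLE2, a corepressor, was the exception. At least 80% of the 3 h difference was present at 1 h in 227 members for INTS11 and 218 for N211del, with median shares of 104% and 98%. Over all tested genes the median shares were 93.3% and 111%, so a median near the 3 h level was not particular to the members. The lower quartile of the share was 95.6% (INTS11) and 88.5% (N211del) in members, against 35.9% and 50.7% over all tested genes. Shares are unstable in genes with a small 3 h difference, which the rule kept out of the members. The counts by share were made for members only.

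**Figure D4:**
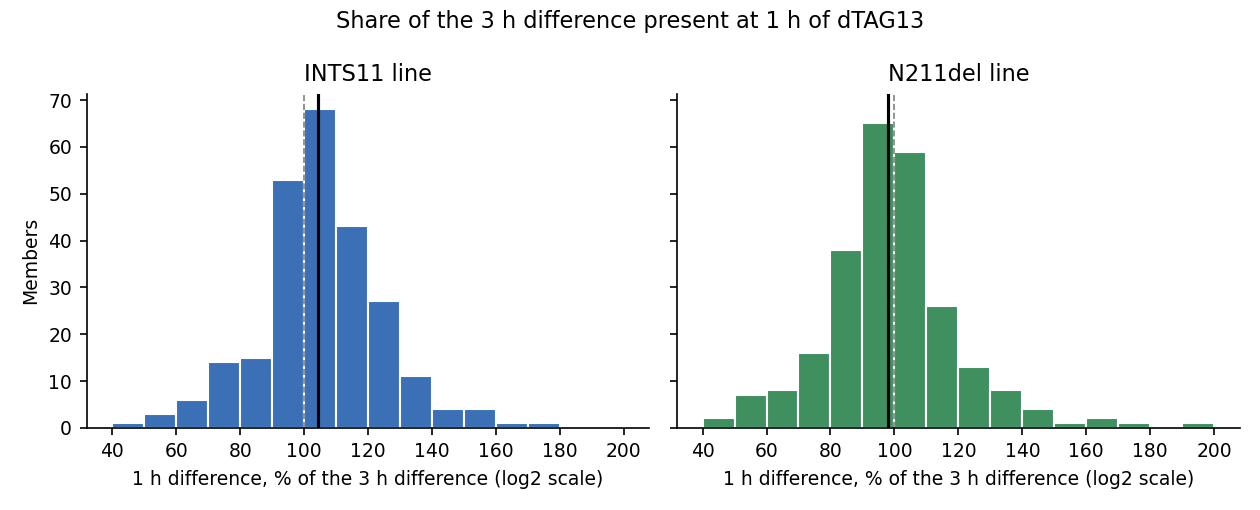
Number of members by the share of the 3 h difference (log2 scale) that was present at 1 h of dTAG13 in the INTS11 and N211del lines of batch 2; black line, median; dashed line, 100%. The medians are 104% and 98%, and 4 and 9 members are under 60%.

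A few members lagged. In the INTS11 line 4 were under 60% at 1 h, of which GADD45G (42.6%), a growth arrest and DNA damage gene, CDKN1C (54.3%), a cell cycle inhibitor, and IL11 (57.3%) were the lowest. GADD45G was at 17.0 and 12.1 at 0 h, 17.2 and 17.6 at 1 h and 23.1 and 22.0 at 3 h, so that its 1 h libraries lay barely above the higher control. In the N211del line the same gene had 99.8% of its difference at 1 h, going from 7.76 and 5.59 to 28.8 and 32.1 and then to 29.8 and 31.2. In the N211del line 9 members were under 60%, with EGR3 (40.3%), CEACAM1 (45.1%), an adhesion protein, and CACNA2D2 (50.02%), a calcium channel subunit, the lowest. The highest shares were 178% for DLX3, 170% for ATOH8 and 157% for PTPRR in the INTS11 line, and 200% for PAOX, 176% for GAL3ST1 and 158% for BTBD19 in the N211del line. DLX3, a homeobox factor, was at 2.29 and 1.54, 5.42 and 6.52, and 3.57 and 3.65 at 0, 1 and 3 h in the INTS11 line and at 0.675 and 0.890, 4.76 and 5.47, and 9.90 and 7.06 in the N211del line.

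From 1 to 3 h few members changed in the limma test. The rule chose members for high values in the 3 h libraries, so these calls are not independent of it. They describe the time course. In the INTS11 line 1 member rose (0.475% of all genes tested), CDKN1C by 0.48 (SE 0.08, adjusted p = 0.01626), and 12 fell (15.1% of all), by 0.65 for TMEM45A to 0.18 for EGLN3. In the N211del line 25 rose (2.2%) and 9 fell (35%). The largest rises there were in CACNA2D2 (1.00), CHRNA7 (0.85), a nicotinic receptor subunit, LTBP1 (0.75), which binds latent TGF-beta, and DLX3 (0.70), and the largest falls in C17orf99 (-0.68), FAM178B (-0.67) and GAL3ST1 (-0.60). TMEM45A, CHRNA7, LTBP1, C17orf99 and FAM178B were picked after their values were seen. The median over all tested genes was -0.09 (INTS11) and -0.13 (N211del), against -0.05 and 0.03 in members. With each library divided by its median, 2 members rose (1.55% of all) and 1 fell (1.21%) in the INTS11 line, and 62 rose (11.6%) and 1 fell (7.63%) in the N211del line. The INTS11 count rested on single libraries: limma called 0 members without INTS11 1 h replicate 1, without INTS11 3 h replicate 1 and without INTS11 3 h replicate 2, where 28, 26 and 28 members had an unadjusted p under 0.05. In the N211del line 15 to 19 were left without any 1 of its own 1 h or 3 h libraries.

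The size of the difference set the lines apart. In batch 1, 214 of the 251 members (85.3%; 63.4% of all tested genes) had a larger difference in the INTS8 line than in the INTS11 line, and 187 (74.5%; 23.4%) a larger one in the INTS8 line than in the N211del line. The N211del line exceeded the INTS11 line in 178 members (70.9%), below the 80.6% of all tested genes, and in 174 (69.3%; 62.7%) in batch 2. With each library divided by its median, the members' median differences in these 2 lines were 1.01 (INTS11) and 1.11 (N211del) in batch 1 and 1.01 and 1.14 in batch 2, and that of the INTS8 line was 1.52. Which of the INTS11 and N211del lines had the larger difference was the same in both batches in 201 members (80.1%; 72.4%). The differences of 146 members (58.2%; 48.3% of all tested genes) were larger in both the INTS8 and N211del lines than in the INTS11 line in both batches, and those of 18 (7.17%; 12.5%) were larger in the INTS11 line than in either. With dTAG13 in batch 1 the level itself was highest in the INTS8 line in 177 members (70.5%; 52.9% of all tested), in the N211del line in 53 (21.1%; 28.6%) and in the INTS11 line in 21 (8.37%; 18.4%). No test was made of these orders, since the rule used every library behind them. The counts by level were made without division by each library's median. With dTAG13 in batch 1 the INTS8 libraries were the deepest, at 8114955 and 7571707 units. INTS11 libraries summed to 6761505 and 6631721, N211del libraries to 6175772 and 7015653. The share of depth in the order of levels was not tested.

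The widest INTS8 minus INTS11 gaps were in MDGA1 (3.46), a neuronal adhesion protein, DIO3 (2.93) and SEMA3G (2.65). MDGA1 went from 0.104 and 0.0746 to 3.07 and 3.39 in the INTS8 line of batch 1 and from 0.0298 and 0.0746 to 0.149 and 0.134 in the INTS11 line. Its DMSO values in these 2 lines rest on 2 to 7 units. Those of DIO3 rest on 5 to 6 units and those of SEMA3G on 7 to 12. At the other end were SPINK2 (-1.15), a protease inhibitor, ST8SIA6 (-0.75), a sialyltransferase, and TRIM54 (-0.62), a muscle ubiquitin ligase, which were all low as well. SPINK2 was listed at 0 and stood at 0.170 with DMSO in the INTS11 line and at 0.850 and 0.935 with dTAG13, against 0.170 and 0.425 and then 1.11 and 0.765 in the INTS8 line.

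How much more a member differed in the N211del than in the INTS11 line was alike in the 2 batches, which share no library. Across the 251 members this gap in batch 1 and in batch 2 had a Pearson correlation of 0.76 and a Spearman correlation of 0.73, and 0.68 and 0.64 across all tested genes. The gap between the INTS8 and INTS11 lines in batch 1 and that between the N211del and INTS11 lines in batch 2 had correlations of 0.65 and 0.61 across members and 0.67 and 0.64 across all tested genes. These are descriptions across genes, which are not independent replicates, and members share the libraries of each batch. The rule also used the differences behind these gaps to choose the members.

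Without dTAG13 the picture was different. The N211del minus INTS11 difference in level with DMSO in batch 1 and at 0 h in batch 2 had correlations of 0.09 (Pearson) and 0.08 (Spearman) across members and of -0.01 and -0.04 across all tested genes. It had the same sign in 133 members (53%; 45.9% of all tested). It was at least 2-fold in opposite directions in 8 of the 251 members and in 36 of all 6569 tested genes. HES2 was lower in the INTS11 line with DMSO in batch 1 (0.427 and 0.213 against 3.20 and 1.92) and higher in it at 0 h in batch 2 (3.95 and 3.85 against 1.35 and 1.27). CDKN1C was at 1.56 and 1.96 against 12.9 and 12.1 in batch 1 and at 8.18 and 7.84 against 4.96 and 5.71 in batch 2. Batch and control treatment (DMSO for 3 h, or 0 h of dTAG13) cannot be told apart here.

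**Figure D5:**
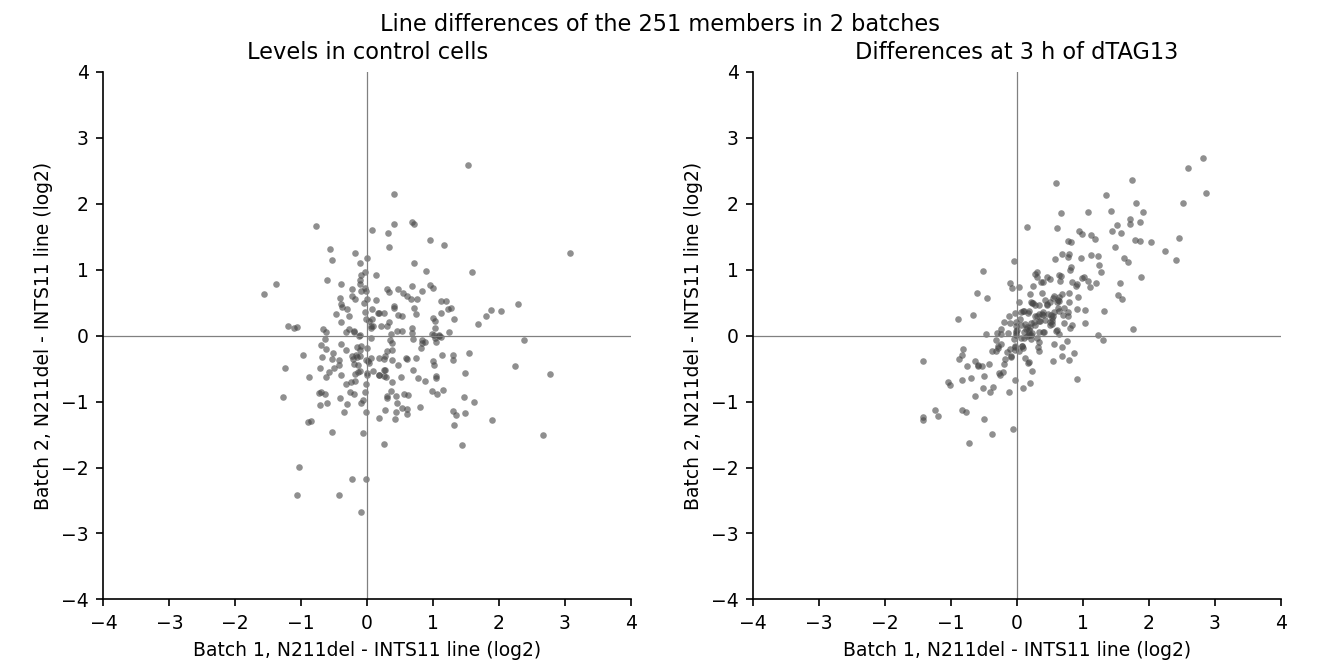
N211del minus INTS11 line for each of the 251 members, batch 1 on the x axis and batch 2 on the y axis, both log2: level in control cells (left) and difference between 3 h of dTAG13 and control cells (right). The Pearson correlations are 0.09 and 0.76.

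The tests between lines in control cells therefore apply only to their batch. The rule used the DMSO and 0 h libraries as controls, though it did not set the lines against each other. Calls on members in these libraries are thus not independent of it. With DMSO, 94 members were higher in the INTS8 than in the INTS11 line (26.8% of all genes tested) and 16 lower (3.91%). After division of each library by its median these were 80 (21.2% of all) and 34 (18.4%). The largest were ATOH8, a basic helix-loop-helix factor, at 3.88 and 3.88 against 0.321 and 0.428 (3.08, SE 0.13, adjusted p = 4.914e-14), HES2 (2.43) and SP6 (2.21), and in the other direction SERPINE2 (-0.90), TNNT2 (-0.88) and PLAAT1 (-0.80). Between the N211del and INTS8 lines, which share the INTS8 tag, 26 members were higher (5.03% of all) and 49 lower (58.7%). With centring the split turned to 86 higher (26.3% of all) and 11 lower (26.3%), and before it the median difference was -0.30 over all genes and -0.08 over members. The DMSO libraries summed to 5612470 and 5514811 units in the N211del line and to 7308329 and 7416280 in the INTS8 line. The share of depth in the split was not tested. PDE4B, a phosphodiesterase, was the lowest in the N211del line at 0.10 and 0.10 against 0.602 and 0.652 (-1.86, SE 0.18, adjusted p = 1.432e-07), followed by CEACAM1 (-0.97) and KCNG3 (-0.94), and EVX1 (1.00), CDKN1C (0.71) and NNMT (0.62) were the highest.

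In batch 2 the N211del and INTS11 lines differed in more members. At 0 h 68 were higher in the N211del line (38.4% of all genes tested) and 91 lower (31.6%). The largest gaps were in FBXO32, a muscle ubiquitin ligase subunit, at 0.667 and 0.873 against 5.45 and 5.37 (-2.67, SE 0.10, adjusted p = 3.818e-08), BMF (-2.42), a cell death gene, and CEACAM1 (-2.41), and in KCTD15 (2.59), TNC (2.15), a matrix protein, and PBX3 (1.72). With DMSO in batch 1 FBXO32 had been nearly level between them, at 1.64 and 1.80 against 1.82 and 1.87. The 1 h libraries were not used by the rule. At 1 h 108 members were higher in the N211del line (53.2%) and 72 lower (23.7%), and with centring 93 (36.8%) and 105 (38.9%), where the members' shares of 37.1% and 41.8% were near those of all genes. The uncentred median was 0.12 in members against 0.22 over all genes of that test. SEMA3G and FGF9 were 3.19 and 3.23 higher there, and PBX3, a homeobox partner, stood at 7.85 and 7.67 against 1.3 and 1.2 (2.55, SE 0.08, adjusted p = 1.157e-08). CEACAM1 (-2.91), ARHGDIB (-2.52) and FOXL1 (-2.44) were the furthest below. Adjusted p-values are those of limma over all genes of the batch, from 2 libraries a group, and they measure the spread between these libraries.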

How the data were processed

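Groups, times and replicate numbers of the 24 TT-seq libraries came from the labels. Their treatment protocol states 3 h throughout, so times were read from titles and characteristics. The submitters' processing notes name DESeq2 1.26.0, Picard 2.23.3, SAMtools 1.9, STAR 2.7.5c and Trim Galore 0.6.6, and as builds mm10 and hg19, without roles. Per the file headers the values are FPKM, but the deposited values are a signal that equals a whole number divided by gene length in batch 1, and the same times 1 factor per library (0.565 to 0.753) in batch 2. Gene lengths were solved so that batch 1 came out whole (100% within 0.02 units, by construction), and with these lengths and 1 fitted factor per library 95.5 to 96.8% of batch 2 values above 0 and under 100 units did. The origin of the factors and the use of strand in counting are not given in the sources consulted, which leaves overlapping genes and near-identical copies uncertain.

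Of the 6603 genes in every file, 6569 had a mean of at least 0.1 in each batch. The rule asked for a difference of at least 0.585 in mean log2(value + 0.1). Batches were fitted apart with limma 3.58.1 in R 4.3.3 on log2(value + 0.1), with a mean for each group, empirical Bayes moderation (trended, robust) and two-sided Benjamini-Hochberg adjustment at 0.05 over all genes of the batch (6579 and 6950). Fold changes on that scale understate changes of low genes. Centring means division of each library by its median. The test was chosen for FPKM and kept, and the procedure was tested on simulated data. Alternatives were other pseudocounts, filters, centring, a replicate block, only the libraries of a contrast, a threshold of 1, and each library left out.

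Members and gene lists were chosen with earlier results of these data known. Named genes were set by rule: the 15 members with the largest smallest-of-5 difference and a mean of at least 1, up to 3 per list, 3 on each side of the threshold, and the 3 most extreme by share at 1 h, by INTS8 minus INTS11 difference, by called line difference and by level, leaving out names of uncharacterised loci. List entries that matched a symbol outside their family were removed after the data were seen. The result of 1 list is not reported here, though its members are in the count of members found in any list. Promoters and neighbouring genes came from RefSeq (GRCh38.p14), and no coordinate of another build was used. Tables and plots were made in Python 3.11.15 (matplotlib 3.10.9, scipy 1.17.1, pandas 2.3.3, numpy 2.4.6).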

Additional observations from a re-analysis of the deposited data

Results flagged for a closer look

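Among the named members, 10 moved in opposite directions from 1 to 3 h of dTAG13 in the 2 lines of batch 2, with both 3 h libraries above both 1 h libraries in the N211del line and both below in the INTS11 line. The difference between lines was not tested, and with 2 libraries a group such a pattern can arise by chance in some of the named genes. On the log2 scale the change in the N211del line exceeded that in the INTS11 line by 1.41 for DLX3, 0.78 for FOXA3, 0.63 for PRKCA, 0.59 for ATOH8, 0.39 for MAOA, 0.38 for PBX3, 0.36 for NR4A3, 0.30 for SMAD6, 0.24 for FBXO32 and 0.15 for NUAK1. PRKCA, a protein kinase C, was at 6.61 and 6.31 at 1 h and 6.05 and 6.12 at 3 h in INTS11 cells, and in N211del cells at 15.7 and 15.6 and then at 22.9 and 22.7. FOXA3, a forkhead factor, went from 2.92 and 3.66 to 2.62 and 2.56 in INTS11 cells, and in N211del cells from 1.43 and 1.03 to 1.49 and 1.95. Over all members the median change from 1 to 3 h was -0.05 (INTS11) and 0.03 (N211del).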

How the results depend on the processing

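The rule gave 251 members, 109 with a pseudocount of 1 and 66 with a threshold of 1 on the log2 scale, all of them among the 251. It gave 294 with a pseudocount of 0.01 and 193 with a filter at a mean of 1. It gave 235 to 267 with each library left out in turn, and these extremes shared 226 and 247 genes with the 251. From 1 to 3 h 13 members changed in the INTS11 line, 3 with centring, 0 when only the libraries of the contrast were fitted with limma (50 at an unadjusted p under 0.05) and 0 to 19 with each library left out. In the N211del line 34 changed, 63 with centring and 15 to 39 with each library left out. The counts higher at 1 h, and the totals that differed between lines in either direction, stayed within 1.5 times under every alternative run, but centring turned 26 higher and 49 lower (N211del minus INTS8, DMSO) to 86 and 11, and 16 lower (INTS8 minus INTS11, DMSO) to 34. The counts higher at 1 h were 229 to 245 (INTS11) and 234 to 240 (N211del) with each library left out. Leaving a library out leaves a group of 1, assumed to vary like the others. Same-numbered replicates did not deviate together (correlations of -0.105 to 0.082 in batch 1 and -0.079 to 0.042 in batch 2) and share only a number. With a replicate block 240 and 240 members were higher at 1 h, 12 and 32 changed from 1 to 3 h, and 73, 111, 162 and 181 differed between lines (75, 110, 159 and 180 without it). Of the 80 named members 51 had a smallest difference that moved by more than the spread between replicates with a pseudocount of 1, 12 with 0.01 and 18 with centring, and none changed sign. The cause of these changes was not tested. Depth limits the precision of the 40 members that averaged under 10 units over the control libraries.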
